A study of Mus musculus with 1279 samples.

Results

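The genes followed here are 9 complement genes, C1ra, C1s1, C2, C3, C4b, C7, Cfb, Serping1 and Cd55, out of 46517 genes counted in single stromal cells of the mouse heart. They were chosen by name as complement genes of stromal cells, with earlier results of these data known, and their counts were read in all 1279 cells, by cluster and by strain. The cells came from adult male mice aged 10 to 20 weeks and were sorted singly into wells for Smart-seq2, which sequences whole transcripts without molecular barcodes. The labels place each cell in 1 of 8 clusters and 1 of 4 strains. Clusters 1 to 5 are called fibroblasts here (926 cells) and clusters 6 to 8 mural cells (353 cells), the smooth muscle cells and pericytes that wrap blood vessels.

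The strains differed in how cells were picked. C57BL6 mice (581 cells) carried no reporter, and their cells were sorted with antibodies. PdgfrbGFP (364 cells), Cspg4dsRED and Acta2GFP mice (the remaining cells, in nearly equal numbers) carried a transgene in which regulatory sequence of the named gene drives a fluorescent protein, so that the reporter set which cells could be picked. The reporter lines had been crossed back to C57BL6 mice, and CD31+ endothelial cells were gated out. Elastase was added to the digestion for Acta2GFP hearts, and each strain had its own plates, so that strain, sort, digestion and plate cannot be told apart. The labels name no animal. Counts were therefore summed over the cells of a strain, the strain was used as the replicate, and p-values measure the spread between strains, each of which can hold several mice. Levels are given as CPM, counts per 1000000 counts of the summed cells, and lists of 4 values run in the order C57BL6, PdgfrbGFP, Cspg4dsRED and Acta2GFP unless stated otherwise.

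Depth and cell identity were checked on the same counts. A cell held between 46268 and 1302397 counts in total (median 274504), and the strain medians lay between 245768 and 301141. The summed level of 5 fibroblast markers (Pdgfra, Col1a1, Col1a2, Dcn, Lum) was 10590 to 14489 CPM in clusters 1 to 5, 309 to 777 CPM in cluster 7 and 959.5 to 3334 CPM in cluster 8. Cluster 6 held 3108 to 12491 CPM of these fibroblast markers beside 9946 to 13384 CPM of smooth muscle markers, and only 3 C57BL6 and 3 Acta2GFP cells belong to it, so its label as mural rests on smooth muscle genes. Cluster 1 was set apart by valve genes such as Wif1, Comp and Fmod (summed 6302 to 7531 CPM against 15.3 to 739 CPM in clusters 2 to 5). Hepatocyte markers (Alb, Apoa1, Ttr) summed to at most 1.28 CPM in any cluster and strain, and macrophage and other immune markers to at most 36.6 CPM outside cluster 7, where they reached 184.5 CPM in 1 strain. The highest sums of cardiomyocyte markers were 626.2, 559.3 and 162.5 CPM in the mural clusters 6, 7 and 8 and 238.2 CPM in cluster 1, against at most 59.3 CPM in clusters 2 to 5. Endothelial markers reached 277.5 CPM in cluster 6 and 177.8 CPM in cluster 1 and at most 98.9 CPM in the others.

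Complement is a cascade of blood and tissue proteins that marks surfaces for removal and can open pores in membranes. In the classical pathway C1q binds a surface and the proteases C1r and C1s, attached to it, cut C4 and C2 to build an enzyme that cleaves C3. Factor B (Cfb) builds the corresponding enzyme of the alternative pathway, and C7 is a component of the membrane attack complex at the end of the cascade. C1 inhibitor (Serping1) blocks C1r and C1s, and decay accelerating factor (Cd55) takes the C3-cleaving enzymes apart on the cell's own surface. The liver makes most of the complement in plasma, and fibroblasts and other tissue cells are known to make some of it locally.

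In the GENCODE annotation of GRCm38, C1ra lies at chr6:124512405-124523443 on the plus strand and C1s1 at chr6:124530345-124542359 on the minus strand. C4b (chr17:34728380-34743882), Cfb (chr17:34856374-34862518) and C2 (chr17:34862604-34898265) are close together on the minus strand, and C3 (chr17:57203970-57228136) lies on the same chromosome and strand. C7 is at chr15:4988762-5063740, Serping1 at chr2:84765387-84775444 and Cd55 at chr1:130439027-130462744, all on the minus strand. All 9 are annotated as protein coding, and reads were counted over their exons.

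Promoter sequences from RefSeq (GRCm38.p6) covered 5 of the 9 genes and run from 250 bases before to 50 bases after the start that RefSeq annotates. That start is the same as in GENCODE for C3, Cd55 and C1s1, but lies inside the GENCODE gene for C1ra and upstream of it for C7. C3, C7 and Cd55, the genes that separated fibroblasts from mural cells most clearly below, are printed with C1ra and C1s1, the paired proteases that did not follow them. Capitals mark matches, on either strand, to 6 motifs, among which the NF-kB motif is given by name only. The letters searched for the TATA box were TATAAA. Those of the site of C/EBP factors were TTGCNNAA. The site of STAT factors was searched as TTCNNNGAA, where N is any base. The core of the interferon response element was taken to be GAAANNGAA. The AP-1 site was searched as TGANTCA, and matches of different motifs were allowed to overlap.
C3, chr17:57228087-57228386, minus strand: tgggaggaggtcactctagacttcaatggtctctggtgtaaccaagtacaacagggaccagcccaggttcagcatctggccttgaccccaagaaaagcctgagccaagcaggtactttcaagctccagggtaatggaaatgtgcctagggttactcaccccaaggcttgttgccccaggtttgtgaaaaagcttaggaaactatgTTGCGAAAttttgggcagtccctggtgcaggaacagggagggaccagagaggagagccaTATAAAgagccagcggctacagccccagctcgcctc
C7, chr15:5063724-5064023, minus strand: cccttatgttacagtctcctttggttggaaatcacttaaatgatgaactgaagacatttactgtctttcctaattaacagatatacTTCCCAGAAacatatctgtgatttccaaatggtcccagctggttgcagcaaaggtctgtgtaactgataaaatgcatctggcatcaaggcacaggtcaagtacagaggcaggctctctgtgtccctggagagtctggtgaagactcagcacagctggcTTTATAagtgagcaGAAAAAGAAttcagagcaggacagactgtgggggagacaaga
Cd55, chr1:130462695-130462994, minus strand: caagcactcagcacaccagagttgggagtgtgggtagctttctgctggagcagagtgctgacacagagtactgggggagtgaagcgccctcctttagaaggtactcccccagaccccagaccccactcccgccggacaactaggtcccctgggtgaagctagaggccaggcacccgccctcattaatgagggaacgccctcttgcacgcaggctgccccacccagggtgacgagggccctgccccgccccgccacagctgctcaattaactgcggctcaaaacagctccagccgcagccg
C1ra, chr6:124512371-124512670, plus strand: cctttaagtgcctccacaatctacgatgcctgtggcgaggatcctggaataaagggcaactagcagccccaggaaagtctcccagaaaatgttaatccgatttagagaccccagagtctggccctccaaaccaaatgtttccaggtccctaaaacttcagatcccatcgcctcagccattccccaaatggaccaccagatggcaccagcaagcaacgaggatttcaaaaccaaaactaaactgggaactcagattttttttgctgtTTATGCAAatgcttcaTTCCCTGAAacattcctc
C1s1, chr6:124542310-124542609, minus strand: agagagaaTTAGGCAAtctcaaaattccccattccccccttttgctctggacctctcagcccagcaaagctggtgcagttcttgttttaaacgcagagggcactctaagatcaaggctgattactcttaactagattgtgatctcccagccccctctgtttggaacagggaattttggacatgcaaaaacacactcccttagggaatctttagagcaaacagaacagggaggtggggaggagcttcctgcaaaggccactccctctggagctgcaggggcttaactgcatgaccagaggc

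Counted from the first transcribed base of RefSeq as 1, the C3 window held a C/EBP match at -45 to -38 and TATAAA at 15 to 20. The C7 window held a STAT match at -164 to -156, the TATA motif on the other strand at -6 to -1 and an interferon core at 9 to 17. C1ra had a C/EBP match at 17 to 24 and a STAT match at 33 to 41, C1s1 had a C/EBP match at -242 to -235, and the Cd55 window held none of the motifs searched. RefSeq gives C1s1 a further start site, and its window, which is not printed, held none of them. Such matches are common. Of 32851 promoter windows of the same length, 13.6% held the TATA motif, 10.8% the C/EBP, 8.3% the STAT, 8.56% the interferon core, 8.46% the NF-kB and 7.81% the AP-1 motif.

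The first comparison asks how the complement genes are divided between fibroblasts and mural cells. C3, C7, Cd55 and Cfb were higher in fibroblasts, by 5.60 to 6.51 on the log2 scale, and were called by edgeR's quasi-likelihood test at a Benjamini-Hochberg adjusted p under 0.05 over 15117 genes. These are 4 of the 9 genes, and 5.93% of all genes tested were called (3.47% higher and 2.45% lower in fibroblasts). The other 5 were not called. Serping1 and C1ra lay above the mural values in every strain, C1s1 lay below them in every strain, and C2 and C4b overlapped. The strain values of fibroblasts and mural cells did not overlap for 7 of the 9 genes, against 14.7% of all genes tested. Cfb is among the genes called and those without overlap, but it passed the filter on low counts through its fibroblast sums. The clusters were drawn from the expression of the same cells, these genes included, so the p-values are not independent of the grouping. Fewer cells with a transcript and less transcript per cell cannot be told apart in summed counts.

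**Figure D1:**
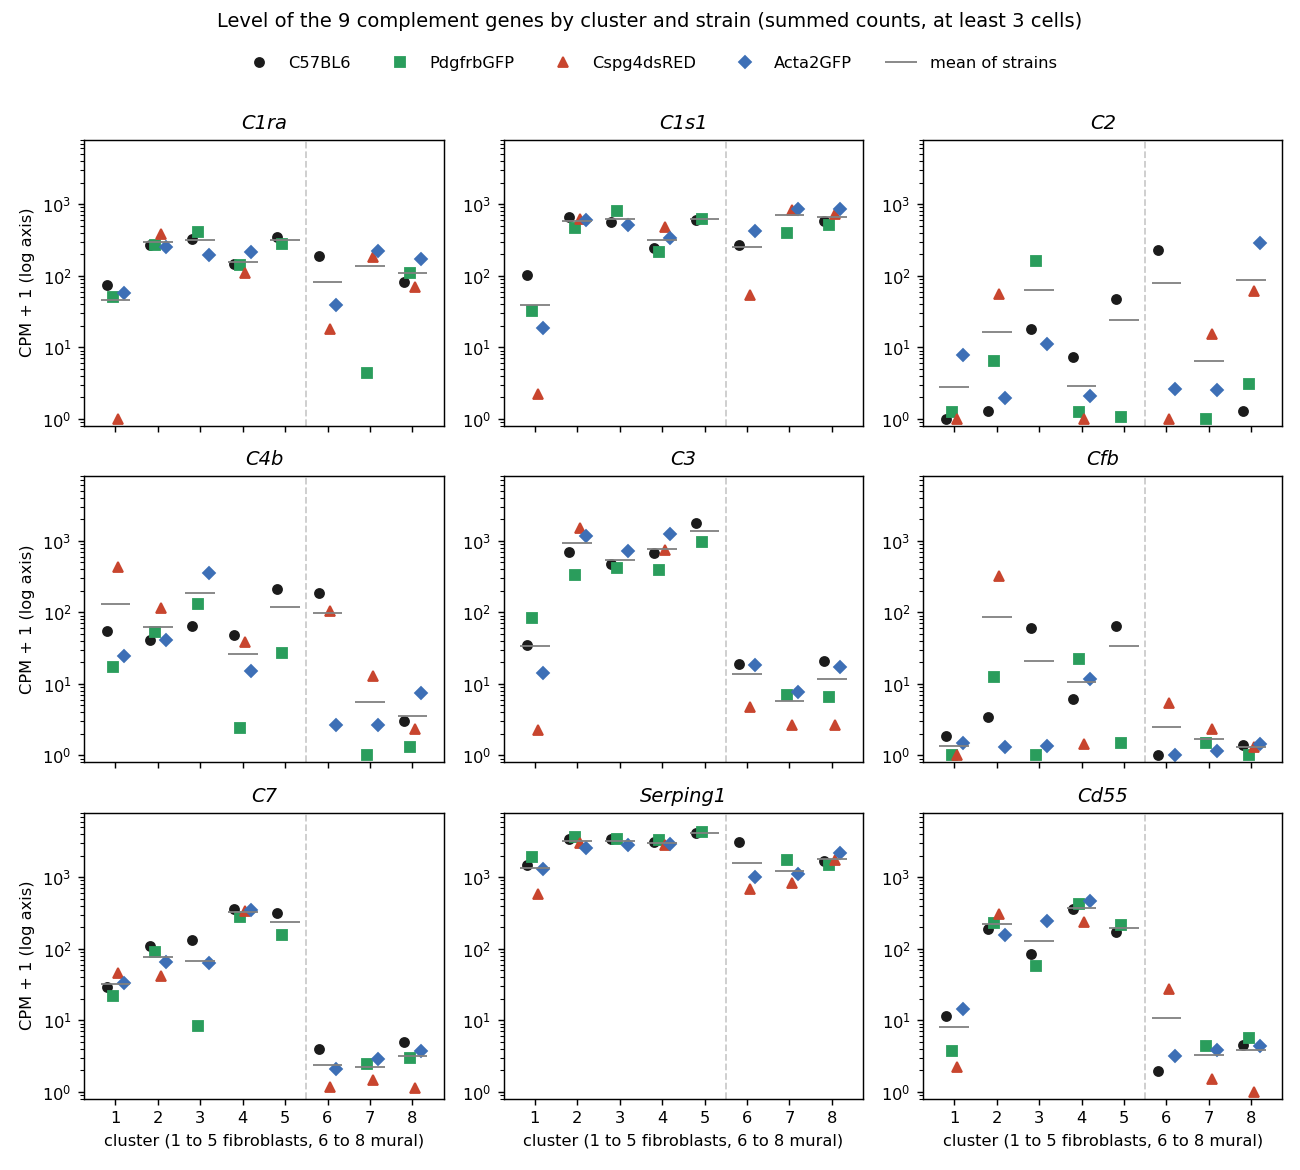
Level of each of the 9 genes (CPM + 1, log axis) in every cluster (1 to 5 fibroblasts, 6 to 8 mural cells), with 1 point per strain that has at least 3 cells in the cluster and a bar at the mean of strains. C3, C7 and Cd55 drop between clusters 2 to 5 and the mural clusters and are also lower in cluster 1, Serping1 runs between 572.6 and 4218 CPM in all clusters, and C2 and Cfb scatter widely between strains.

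C1ra and C1s1 encode the proteases that open the classical pathway, and in these cells their transcripts were found on both sides. C1ra was at 260.9, 217.8, 222.7 and 191.7 CPM in fibroblasts and at 90.8, 96.4, 110.2 and 189.1 CPM in mural cells. The lowest fibroblast value thus stood just above the highest mural value, that of Acta2GFP, and the difference of 0.87 ± 0.30 (log2, SE) had an adjusted p of 0.142 in edgeR. C1s1 went the other way, at 493.8, 419.3, 481.4 and 375.6 CPM in fibroblasts and 561.7, 499.1, 575.4 and 826.3 CPM in mural cells. Every mural value exceeded every fibroblast value, yet the difference was small (-0.48 ± 0.24, edgeR adjusted p = 0.364). Among clusters, C1ra was highest in clusters 5, 3 and 2 (means over strains of 313.6, 310.7 and 291.95 CPM, with overlapping ranges), and the mean of cluster 4 was lower (152.5 ± 45.2, SD, n = 4), although its highest strain, at 215.8 CPM, lay above the lowest of cluster 3, at 196.1 CPM. For C1s1 the mural clusters 7 (698.5 ± 264.98 CPM, n = 3) and 8 (668.6 ± 158.4 CPM, n = 4) led the order, but each cluster's range overlapped that of its neighbour, down to 37.5 ± 43.5 CPM in cluster 1 (n = 4).

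C2 and C4b encode the components that C1s cuts. C2 was at 18.2, 6.03, 21.2 and 3.3 CPM in fibroblasts and at 27.4, 1.85, 18.7 and 93.7 CPM in mural cells, without a common direction (-1.53 ± 1.02, edgeR adjusted p = 0.539). Its highest sum, 283.9 CPM in cluster 8 of Acta2GFP, and its next, 230.2 CPM in the 3 cluster 6 cells of C57BL6, were both mural. C4b was at 97.6, 26.7, 94.4 and 65.6 CPM in fibroblasts and at 23.9, 0.292, 37.9 and 3.22 CPM in mural cells, higher in fibroblasts within each strain but with overlap between strains (2.13 ± 1.06, edgeR adjusted p = 0.361). Most mural C4b was in cluster 6, which stood at 186.1, 103.7 and 1.62 CPM in C57BL6, Cspg4dsRED and Acta2GFP, while clusters 7 and 8 held 0 to 11.8 CPM. Without clusters 1 and 6 the C4b difference was 4.19, with an edgeR adjusted p of 0.0193.

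C3 is the protein on which all pathways converge. Its transcript stood at 959.7, 565.4, 961.3 and 909.8 CPM in fibroblasts and at 19.7, 5.64, 2.26 and 10.7 CPM in mural cells. No mural value came near a fibroblast value, and the difference was 6.47 ± 0.66 on the log2 scale (edgeR adjusted p = 0.000514). Cfb was much lower, at 30.1, 8.39, 125.2 and 3.67 CPM in fibroblasts and 0.347, 0.0486, 2.06 and 0.244 CPM in mural cells. The mural sums of Cfb rest on 3, 1, 73 and 5 counts. The fitted difference was 5.88 ± 1.48 with an edgeR adjusted p of 0.0439, the weakest call of the 4. Cfb was not called after leaving out any 1 of the 4 strains (adjusted p of 0.065 to 0.171), with limma voom (0.0599), or when the mean over cells of log2(CPM + 1) replaced the sums (difference 0.44, adjusted p = 0.292).

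C7 is built into the membrane attack complex. C7 stood at 242.4, 152.8, 169.3 and 152.7 CPM in fibroblasts and at 3.71, 1.94, 0.311 and 2.05 CPM in mural cells, a difference of 6.51 ± 0.71 (edgeR adjusted p = 0.000686). In cluster 4 it reached 363.4, 273.4, 332.3 and 349.5 CPM, and no other cluster with values from all 4 strains came close (the next, cluster 2, had 75.9 ± 29.7 CPM). The 2 strains of cluster 5, at 319.2 and 153.4 CPM, overlapped cluster 4. Within C57BL6 the level also moved with the plate. In cluster 4 it was 215.5 CPM on the plate with more cells and 579.2 CPM on the other, and the smaller plate was higher in clusters 2, 3 and 5 as well, but not in cluster 1, where its 3 cells had 0 counts of C7. The part of the plate in the C7 values was not tested.

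The regulators differed from each other. Serping1, which encodes C1 inhibitor, was the most abundant of the 9 genes in every cluster when levels were divided by exon length. Per kilobase of exon it had 1311 to 1791 CPM in clusters 2 to 5, where C3 had 104.5 to 267.8, C1s1 101.3 to 199.6, C1ra 51.2 to 105.2, C7 25 to 123.2 and Cd55 26.5 to 76.3. It stood at 3470, 3597, 2735 and 2421 CPM in fibroblasts and 1865, 1516, 949.8 and 1444 CPM in mural cells. All fibroblast values lay above all mural values, but the difference of 1.07 ± 0.29 had an edgeR adjusted p of 0.064. The call depended on the fit, with adjusted p of 0.0398 in edgeR with the strain as a block, 0.0256 in DESeq2 and 0.0117 in limma voom. Cluster 5 stood highest (4110 and 4218 CPM in C57BL6 and PdgfrbGFP), above the range of every other cluster.

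Cd55, which sits on the cell surface and protects the cell that makes it, had the smallest error of the called genes. It was at 204.5, 246.2, 247.7 and 232.1 CPM in fibroblasts and at 3.13, 4.52, 8.34 and 2.97 CPM in mural cells, a difference of 5.60 ± 0.43 (edgeR adjusted p = 0.000118). The fibroblast values of the 4 strains were close together, and the highest mural value came from Cspg4dsRED, the strain with the most cluster 6 cells. C3, C7 and Cd55 were called in each alternative fit that was run for this comparison, including those without each strain and without clusters 1 and 6.

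**Figure D2:**
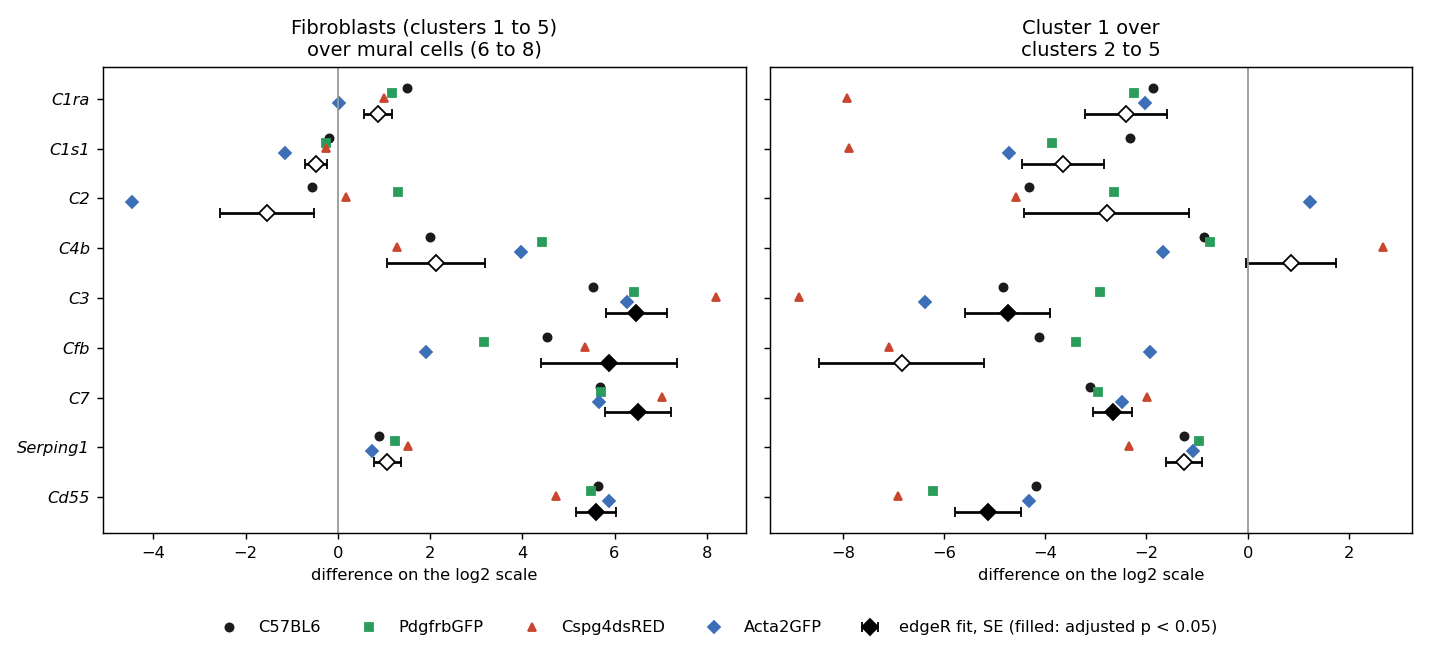
Difference of each of the 9 genes on the log2 scale, fibroblasts minus mural cells and cluster 1 minus clusters 2 to 5. Black points are edgeR estimates with standard errors (filled where the adjusted p is under 0.05), and small coloured points are the differences of log2(CPM + 1) in single strains, which lie closer to 0 for weakly expressed genes such as Cfb and C2.

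Cluster 1 is the fibroblast cluster with valve genes. C3, C7 and Cd55 were lower in it than in clusters 2 to 5 and were called by edgeR, 3 of the 9 genes against 1.33% of 13201 genes tested (0.561% higher and 0.773% lower). The median difference of the 9 genes was -2.78 on the log2 scale, beside -0.03 over all genes tested. That median is the estimate of C2 (SE 1.63, edgeR adjusted p = 0.77), which rests on 0, 2, 0 and 72 counts in cluster 1. For 7 of the 9 genes each cluster 1 value lay below each value of clusters 2 to 5, against 9.36% of all genes tested whose values did not overlap. The exceptions were C2 and C4b. This holds for clusters 2 to 5 summed together. Among single clusters, C7 went down to 7.4 CPM in cluster 3 and 41.1 CPM in cluster 2, below and within the range of cluster 1. The lowest Cfb values of clusters 2, 3, 4 and 5 were 0.303, 0, 0.42 and 0.511 CPM, each within the range of cluster 1 (0 to 0.845 CPM). The fibroblast markers summed to 10590 to 13824 CPM in cluster 1, beside 10700 to 14489 CPM in clusters 2 to 5. Cluster 1 also had the lowest mean of the fibroblast clusters for immediate early genes (7060 against 10320 to 20682 CPM) and interferon genes (242.3 against 439.1 to 1009 CPM), and the part of these, or of the cardiomyocyte and endothelial markers, in its lower levels was not tested. The 3 Cspg4dsRED cells are the smallest group in this comparison.

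C3 stood at 33.8, 81.9, 1.23 and 13 CPM in cluster 1 and at 993.9, 626.02, 1041 and 1161 CPM in clusters 2 to 5, a difference of -4.74 ± 0.84 (edgeR adjusted p = 0.0225). Fitted with a replicate block, it had an adjusted p of 0.0672 and was not called, and leaving out C57BL6 (0.217) or Acta2GFP (0.165) ended the call as well. Cd55 stood at 10.6, 2.73, 1.23 and 13.6 CPM in cluster 1 and at 211.7, 276.8, 268.2 and 293.2 CPM in the others, a difference of -5.13 ± 0.65 (edgeR adjusted p = 0.00298) that was called in each alternative. The mural clusters 7 and 8 had 2.26 ± 1.55 CPM (n = 3) and 2.9 ± 2.01 CPM (n = 4) of Cd55, so the ranges of cluster 1 and of these overlapped. C7 fell less far, to 27.9, 21.1, 44.4 and 32.6 CPM from 250.4, 169.4, 179.7 and 186.3 CPM (-2.67 ± 0.39, edgeR adjusted p = 0.00769). A single cell held 41.4% of the C7 counts of cluster 1, which of these sums only that of Acta2GFP could hold, so the 32.6 CPM come mostly from it. It was not called without C57BL6 (0.134), PdgfrbGFP (0.0747) or Acta2GFP (0.0987), nor with limma voom (0.0508) or with the mean over cells of log2(CPM + 1) (0.702).

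The proteases, the inhibitor and Cfb also had negative estimates in cluster 1 and were not called by edgeR. C1s1 was at 100.1, 31.3, 1.23 and 17.3 CPM in cluster 1 and at 508.4, 467.9, 521.3 and 475.9 CPM in the others (-3.65 ± 0.81, edgeR adjusted p = 0.0532). It was called with DESeq2 (adjusted p = 0.000464), limma voom (0.0139), edgeR without the filter on low counts (0.0268) and the mean over cells of log2(CPM + 1) (0.0165). C1ra was at 72.7, 49.3, 0 and 55.9 CPM against 267.8, 238.99, 241.2 and 229.7 CPM (-2.40 ± 0.81, adjusted p = 0.275). Cluster 1 had the lowest mean of both genes among the 8 clusters, the mural ones included. Serping1 was at 1477, 1938, 572.6 and 1306 CPM against 3543, 3805, 2915 and 2734 CPM (-1.26 ± 0.36, adjusted p = 0.146) and was called with the mean over cells (0.0331). Cfb had 5, 0, 0 and 5 counts in all of cluster 1 (-6.84 ± 1.64, adjusted p = 0.0676) and was called with DESeq2 (1.78e-05). In this comparison Cfb passed the filter on low counts through the sums of clusters 2 to 5. C2 had 0, 2, 0 and 72 counts (-2.78 ± 1.63, adjusted p = 0.77). C4b stood at 54.1, 16.2, 430.7 and 23.4 CPM in cluster 1 against 99.2, 28.1, 66.4 and 77.4 CPM, lower in 3 of 4 strains, and its estimate was positive (0.86 ± 0.89, adjusted p = 0.961). The sign turned without Cspg4dsRED (-1.12), with the replicate block (-0.32) and with limma voom (-0.94). The high value came from 1 Cspg4dsRED cell that held all 349 counts of that group.

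Within clusters 2 to 5 the question is whether some kinds of fibroblast carry more complement transcript than others. EdgeR called none of the 9 genes and no gene at all (0% called) in any of the 4 comparisons of a cluster with the other 3, over 13870 to 16214 genes tested. In cluster 4, 6 of the 9 genes had an unadjusted p under 0.05, beside 4.75% of all genes. DESeq2 called 2 of them (C1ra and C7, beside 1.38% of all genes) and limma voom 1 (C1s1, beside 0.248%). C7 was higher in cluster 4 than in clusters 2, 3 and 5 in each strain, at 363.4, 273.4, 332.3 and 349.5 CPM against 205.7, 124.2, 33.6 and 75.4 CPM (1.58 ± 0.45, edgeR adjusted p = 0.517). Cd55 was at 352.9, 426.8, 238.97 and 462.3 CPM against 155.96, 211.7, 296.2 and 178.3 CPM, higher in 3 of 4 strains (0.82 ± 0.29, adjusted p = 0.802). The proteases had the opposite sign. C1s1 was at 241.1, 215.1, 472.9 and 338.95 CPM in cluster 4 against 613.9, 577.7, 567.7 and 569.02 CPM (-0.87 ± 0.26, adjusted p = 0.59), and C1ra at 147.02, 138.1, 109.1 and 215.8 CPM against 315.5, 282.8, 367.7 and 239.1 CPM (-0.98 ± 0.26, adjusted p = 0.389). Each was lower in 4 of 4 strains. C2 (-3.42 ± 1.45, adjusted p = 0.998) and C4b (-1.92 ± 0.79, adjusted p = 0.998) also had negative estimates. Cluster 4 is the cluster with the most Pi16, Dpp4, Ly6c1 and Sema3c, markers of adventitial fibroblasts (summed 2276 to 3381 CPM, against 25.9 to 2132 CPM in clusters 1, 2, 3 and 5).

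In cluster 5, 3 of the 9 genes (C1ra, C1s1 and C3) had an unadjusted p under 0.05, beside 3.89% of all genes, and DESeq2 called C3 (1 of 9, beside 0.829%) while limma voom called none of the 9 (0% of all genes). C3 was at 1782 and 972.5 CPM in cluster 5 of C57BL6 and PdgfrbGFP, against 634.6 and 369.3 CPM in clusters 2 to 4 (1.53 ± 0.35, edgeR adjusted p = 1). EdgeR without the filter on low counts gave 1.52 with an adjusted p of 0.000862, and called 0.119% of all genes. This comparison rests on 2 strains. Both plates of C57BL6 were high, at 1902 CPM on the larger and 1629 CPM on the smaller. Cluster 5 also had the highest summed level of immediate early genes such as Fos, Jun and Egr1 (20431 and 20933 CPM), which rise during dissociation of tissue, and the part of that response in the C3 level was not tested. In cluster 3 the summed level of immediate early genes ran from 11480 to 20868 CPM, with 470.1, 414.9 and 727.1 CPM of C3 in C57BL6, PdgfrbGFP and Acta2GFP.

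Clusters 2 and 3 gave less. In cluster 2, C1s1 and C7 had an unadjusted p under 0.05 (2 of 9, beside 4.62% of all genes). DESeq2 called C7 (1 of 9, beside 1.29%, with no adjusted p for Cfb) and limma voom none of the 9 (0.0577% of all genes). C7 was at 109.8, 88.5, 41.1 and 64.3 CPM in cluster 2 against 194.7 to 297.01 CPM in clusters 3 to 5, lower in 4 of 4 strains (-1.74 ± 0.33, edgeR adjusted p = 0.177). In cluster 3, C4b had an unadjusted p under 0.05 (1 of 9, beside 6.05% of all genes), DESeq2 called none of the 9 (2.71% of all genes, with no adjusted p for C2) and limma voom none (0%). C4b was at 63.5, 131.4 and 355.1 CPM in cluster 3 of C57BL6, PdgfrbGFP and Acta2GFP against 105.7, 24.5 and 30.6 CPM (1.98 ± 0.84, adjusted p = 0.753), higher in 2 of 3 strains. A single cell held 46.6% of all C4b counts of cluster 3, more than the sums of C57BL6 or PdgfrbGFP could hold, so the Acta2GFP value comes mostly from that cell.

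The next comparison asks how the genes are divided between pericytes and smooth muscle cells. Pericyte markers (Kcnj8, Abcc9, Rgs5, Higd1b) summed to 4922 to 19522 CPM in cluster 8 and 2729 to 9395 CPM in cluster 7, with overlapping ranges. Smooth muscle markers (Acta2, Myh11, Tagln, Cnn1) summed to 201.1 to 4033 CPM in cluster 8 and 10670 to 15717 CPM in cluster 7. Cluster 8 was compared with cluster 7 in 3 strains, and 8 of the 9 genes passed the filter on low counts, all but Cfb. EdgeR called 0 of 8 (0.194% of all genes), and C2 was the 1 gene with an unadjusted p under 0.05 (6.88% of all genes). DESeq2 called 0 (3.51%, with no adjusted p for C7) and limma voom 0 (1.31%). The C2 difference of 4.44 ± 1.92 (edgeR adjusted p = 0.673) came with 2.05, 60 and 283.9 CPM in cluster 8 of PdgfrbGFP, Cspg4dsRED and Acta2GFP and 0, 14.5 and 1.51 CPM in cluster 7. Cluster 6 was compared with clusters 7 and 8 for the same 8 genes. EdgeR again called 0 (0.033% of all genes), C4b had an unadjusted p under 0.05 (1 of 8, beside 5.74%), DESeq2 called C4b (1 of 8, beside 3.12%, with no adjusted p for C7) and limma voom called C1s1 (1 of 8, beside 0.479%). The C4b estimate was 4.31 ± 1.82 (edgeR adjusted p = 0.746) and that of C1s1 -1.44 ± 0.73 (adjusted p = 0.964), with C1s1 at 269.4, 53.2 and 423.7 CPM in cluster 6 of C57BL6, Cspg4dsRED and Acta2GFP against 600.9, 804.99 and 866.3 CPM in clusters 7 and 8. A single cell held 47.5% of the C1s1 counts of cluster 6, which of these sums only that of the 3 Acta2GFP cells could hold. The fibroblast markers in cluster 6 are given above, and their part in its C4b level was not tested.

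Summed levels hide how many cells carry a transcript. With at least 10 counts in a cell as the mark of a clear signal, Serping1 was found in 100% of cells of clusters 2 to 5, in 97.1% of cluster 1 and in 92.3% to 97.5% of the mural clusters. C3 was found in 569 of 926 fibroblasts, 61.4% (Wilson 95% interval 58.3 to 64.5), and in 12 of 353 mural cells, 3.4% (1.96 to 5.85). Its share was 79.1% in cluster 5, 64.4% in cluster 2, 59.7% in cluster 4, 41.1% in cluster 3 and 17.1% in cluster 1. A single count of C3 was far more widespread, in 94.9% of fibroblasts and 51.3% of mural cells, so most mural cells with C3 reads held only a few. The intervals cover counting of cells only, and the median total count per cell was 300089 in fibroblasts and 208557 in mural cells.

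C7 at 10 counts or more was found in 403 fibroblasts (43.5%) and in 0 of 353 mural cells, where the Wilson interval reaches 1.08%. Cd55 was found in 397 fibroblasts (42.9%) and in 3 mural cells (0.85%), all 3 in cluster 6. Both were most widespread in cluster 4 (63.5% for C7 and 67% for Cd55) and much less so in cluster 1 (14.3% and 7.14%). C1s1 had nearly the same share in fibroblasts (60.5%) and mural cells (60.9%), with 88.1% in cluster 7, 52.6% in cluster 8 and 20.5% in cluster 6. C1ra differed more, with 61.7% and 32.6%, and among mural clusters it was in 58.5% of cluster 7 and 17.9% of cluster 8. These shares pool strains, and the median total count was 243989 in cluster 7 and 167873 in cluster 8. By strain, C1ra was lower in cluster 8 in Cspg4dsRED (69.1 against 181.5 CPM) and Acta2GFP (170.3 against 222.97 CPM) but higher in PdgfrbGFP (106.6 against 3.43 CPM, the latter from 9 cells).

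**Figure D3:**
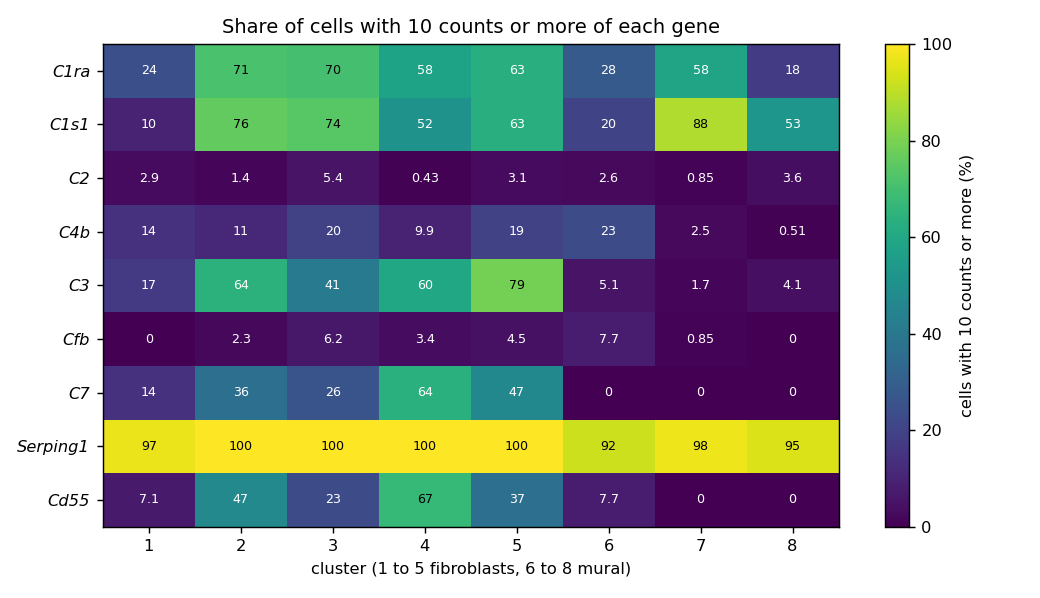
Share of cells (%) with 10 counts or more of each gene, by cluster. Serping1 is found in nearly all cells of each cluster, C3, C7 and Cd55 mostly in clusters 2 to 5, C1s1 in most cells of cluster 7, and C2 and Cfb in at most 7.69% of cells of each cluster.

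C2, Cfb and C4b were found in few cells. At 10 counts or more C2 was found in 21 of 926 fibroblasts (2.27%) and 9 of 353 mural cells (2.55%), Cfb in 33 (3.56%) and 4 (1.13%), and C4b in 14.6% and 3.68%. The 10 fibroblasts with the most counts, about 1% of them, held 73.8% of all C2 counts and 71.5% of all Cfb counts in fibroblasts. For C4b they held 34.6%, for C7 16.4%, for Cd55 10%, for C3 8.79% and for Serping1 2.16%. A summed level of C2 or Cfb is therefore the level of a few cells, and 1 mural cell held 39.3% of all C2 counts on the mural side.

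**Figure D4:**
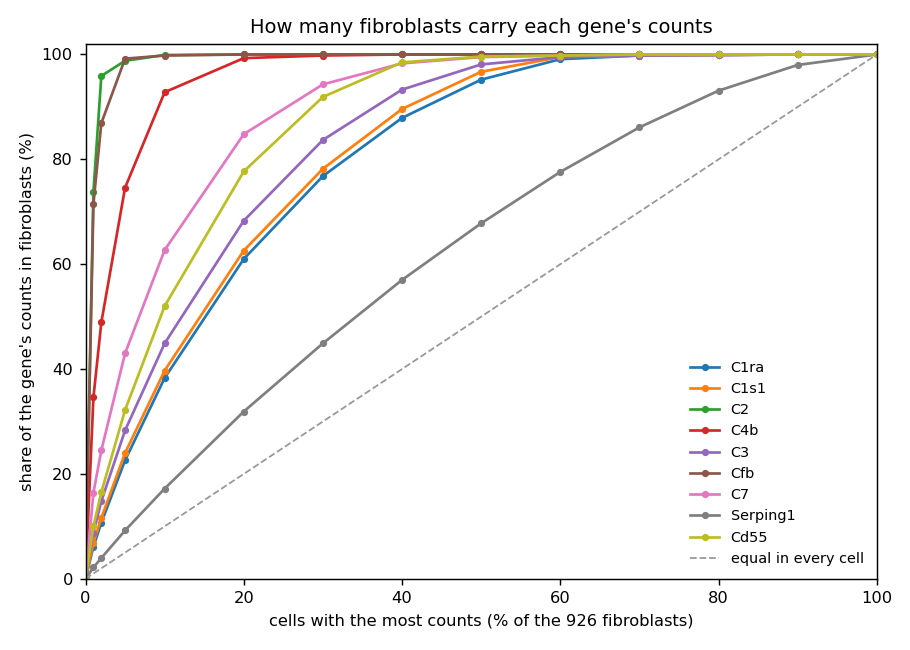
Share of each gene's counts in fibroblasts (%, vertical axis) held by the fibroblasts with the most counts (% of the 926 cells, horizontal axis), with a dashed line for equal counts in every cell. Serping1 runs nearest the dashed line, with 17.2% of its counts in the top 10% of cells, while the top 5% of cells already hold 98.8% of the C2 and 99.2% of the Cfb counts.

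The counts of C2 and Cfb are also shared with another gene model. Gm20547 runs through both genes on the same strand (chr17:34856412-34882042) and covers 42.8% of the exon bases of C2 and 79.5% of those of Cfb. Of the 21 fibroblasts with 10 counts or more of C2, 18 (85.7%) also had 10 or more of Gm20547, and so did all 33 fibroblasts with Cfb (100%), against 3.31% and 1.68% of the other fibroblasts. How reads over shared exons were assigned changes the levels of both, so C2 and Cfb are uncertain. C2 and Cfb themselves met in 3 fibroblasts. In fibroblasts with C1ra, 73.7% also had C1s1, against 39.2% of those without C1ra. In fibroblasts with C4b, 76.3% also had C3, against 58.9% of the others. These shares rise with the depth of a cell, which was not adjusted for.

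Near-identical copies limit the reads that can be placed. Of the 50-base windows along the transcripts, 48% of those of C1ra also occur in C1rb, 34.6% of those of C4b in C4a, 21.8% of those of C1s1 in C1s2 and 8% of those of Cd55 in Cd55b. C3, C7 and Serping1 share none with another gene. C1s1 overlaps the antisense gene Gm16567 over 18.4% of its exon bases and Cd55 overlaps the antisense gene Gm16083 over 2.1%. Reads over the bases shared with such partners cannot be told apart here. The strand setting of the counting is not given in the sources used here.

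Across the 21 sums of a strain and cluster with at least 10 cells, the levels of the genes were compared with each other. Pearson's r of log2(CPM + 1) was 0.94 between C3 and C7, 0.90 between C3 and Cd55, 0.89 between C7 and Cd55 and 0.88 between C3 and Serping1. C1ra had r = 0.71 with C1s1, 0.68 with Serping1, 0.60 with C3 and 0.51 with C7, and C4b had r = 0.55 with Cd55, while C1s1 and C7 had r = -0.02 and C2 and C3 had r = -0.18. The sums share strains, libraries and the split into fibroblasts and mural cells, and the part of that split in these values was not tested. Within single groups of at least 30 cells of 1 strain and cluster, the rank correlations were weak. The median rho over 12 groups was 0.08 between C3 and C7, and over 14 groups it was 0.24 between C1ra and C1s1.

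Of 12954 genes compared over the same 21 sums, the closest to C7 were Ly6a (r = 0.99), Serpina3n (0.98) and Igfbp6 (0.97), and the closest to C3 were Serpina3n, Gm36535 and Smoc2 (0.95 each). Serping1 was nearest to Gpx3 (0.95), Ms4a4d (0.94) and Pcolce (0.93). Cd55 was nearest to its antisense partner Gm16083 (0.98), then to F3, which encodes tissue factor (0.93), and Emilin2 (0.92). For C1s1 the first was its antisense partner Gm16567 (1.00), followed by Fnbp4 and Sparcl1 (0.84 each), and for C1ra Pcsk6 (0.80), Adcyap1r1 (0.79) and Aldh1a2 (0.77). C4b was nearest to Echdc2 and Aox1 (0.81 each) and P2rx7 (0.79). C2 was nearest to Gm20547 (0.85), Zeb2 (0.74) and Poli (0.73), and Cfb to Phf24 (0.74), 4921531C22Rik (0.73) and Gm28875 (0.71). Gm16083, Gm16567 and Gm20547 share exon bases with Cd55, C1s1 and C2, and the part of shared reads in these r values was not tested.

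The rest of the complement system was counted from a list of 46 other genes, and 13 of them reached a mean of 10 CPM in a cluster. By role these were 3 of 10 recognition genes (C1qc, Colec11, Colec12), 2 of 6 proteases (C1rl, Masp1), 1 of 8 cascade components (C8g), 2 of 6 soluble regulators (Clu, Vtn), 4 of 7 membrane regulators (Cd46, Cd59a, Cr1l, Csmd1) and 1 of 9 receptors (Cd93). No count at all was found for Mbl1, Mbl2, Fcnb, Cfd, C9 and Cpn1. C1qc reached 10 CPM in cluster 7 only, where the immune markers were highest too. C1qa and C1qb had means of 0.177 and 0.354 CPM in cluster 7 and were highest in cluster 5, at 5.63 and 4.04 CPM. The source of the C1qc counts was not tested. For C1qc (cluster 7), Masp1 and Csmd1 (cluster 8) and Cd46 (cluster 3) the mean rested on 1 strain, at 52, 82.4, 50.6 and 33.3 CPM, with medians over strains of 1, 0, 0.3 and 2.93 CPM.

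Between fibroblasts and mural cells, 16 of the 46 passed the filter and 3 were called, 1 higher and 2 lower in fibroblasts (5.93% of all genes, 3.47% higher and 2.45% lower), with a median difference of -1.10 on the log2 scale. Colec12, a scavenger receptor of the collectin family, was higher in fibroblasts (325.7 ± 53.1 against 95.5 ± 25.6 CPM, n = 4; log2 difference 1.76 ± 0.27, edgeR adjusted p = 0.00487). Colec11, a collectin that can start the lectin pathway, was lower in fibroblasts (21.1 ± 9.14 against 1175 ± 841.97 CPM; -5.86 ± 0.68, adjusted p = 0.000908), and so was Vtn, which encodes vitronectin, an inhibitor of the membrane attack complex (15.2 ± 9.49 against 2450 ± 2015 CPM; -7.36 ± 1.02, adjusted p = 0.00248). Both had their highest mean in cluster 8, at 1926 CPM (Colec11) and 3684 CPM (Vtn), with up to 759.2 CPM of Colec11 in a strain of cluster 6 and 570.1 CPM of Vtn in a strain of cluster 7. Over the alternatives the highest adjusted p was 0.0594 for Colec12, 0.0181 for Colec11 and 0.033 for Vtn.

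Clu, which encodes clusterin, a further inhibitor of the membrane attack complex, went the opposite way to C3 and Cd55 in cluster 1. Its level was at 896.5, 908.5, 4257 and 842.5 CPM in cluster 1 and at 1.53 to 159.6 CPM in the single clusters 2 to 5, higher in cluster 1 by 4.62 ± 0.69 (edgeR adjusted p = 0.00784, up to 0.0835 over the alternatives), the 1 gene called of 11 tested on the list, beside 1.33% of all genes. Cd59a, which encodes another such inhibitor on the cell surface, was not called by edgeR (2.66 ± 0.58, adjusted p = 0.0509), with the block (0.113) or with the mean over cells (0.844), but was with DESeq2 (0.00015) and limma voom (0.0141). Between cluster 8 and cluster 7, 2 of 10 genes tested were called, beside 0.194% of all genes. Colec11 was higher in cluster 8 (5.92 ± 1.03, adjusted p = 0.0455, up to 0.335 over the alternatives) and Clu lower (-5.10 ± 0.79, adjusted p = 0.0292, up to 0.125). Vtn was not called (3.49 ± 0.89, adjusted p = 0.177; 0.255 in DESeq2), but was with the replicate block (0.0166) and limma voom (0.00762). In the other 5 comparisons edgeR and limma voom called none of the list's genes. DESeq2 called Colec12 (adjusted p = 0.000271) and Clu (0.00868) in cluster 2, C8g (0.0104) in cluster 3, and Cd59a (1.58e-06) and Colec12 (0.0103) in cluster 4. In cluster 6 edgeR with the replicate block called Vtn (adjusted p = 2.07e-19) and Colec11 (0.000136), beside 0.883% of all genes, against 0.033% without the block. The genes with an unadjusted p under 0.05 in edgeR numbered 4 of 15 in cluster 2 (4.62% of all genes), 1 of 16 in cluster 3 (6.05%), 2 of 14 in cluster 4 (4.75%), 0 of 22 in cluster 5 (3.89%) and 2 of 12 in cluster 6 (5.74%).

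**Figure D5:**
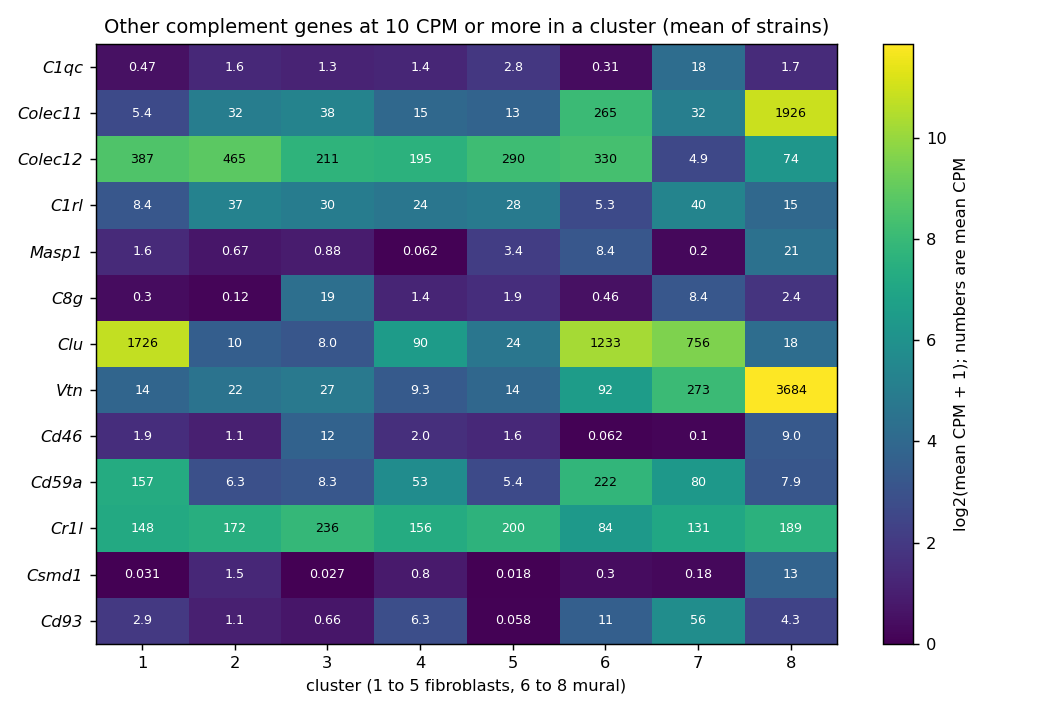
Mean level over strains (CPM, colour on a log scale) of the 13 listed complement genes that reach 10 CPM in a cluster, by cluster. Vtn and Colec11 are high in cluster 8, Clu in clusters 1, 6 and 7, and Cr1l runs between 84.4 and 236.4 CPM throughout.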

How the data were processed

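The authors prepared Smart-seq2 libraries from single sorted cells, sequenced single 50-base reads, trimmed them with Trim Galore, aligned them with TopHat and Bowtie to the mouse genome (GRCm38/mm10 per the labels) and deposited raw counts per gene from featureCounts. The annotation release and strand setting are not given in the sources used here. They removed cells of low quality, cells with very many genes as possible doublets, and cells with endothelial or immune signatures. Cells with neither Pdgfra nor Pdgfrb were also removed, and the rest were clustered with pagoda2. No doublet caller was run here, since cells were sorted singly into wells.

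Counts were used as deposited. The 92 ERCC spike-ins (1.82% of counts) were left out, and 46005 of 46517 gene IDs matched a name. All cells had a cluster and strain in the labels, and 0 pairs of cells were identical. For each comparison the counts of a strain's cells on either side were added up, with at least 3 cells per sum. Sums were tested with edgeR 4.0.16 (quasi-likelihood F test, TMM, filterByExpr minimum of 10 counts) with no block, with Benjamini-Hochberg adjustment over all genes tested and a threshold of 0.05. DESeq2 1.42.0 and limma 3.58.1 served as alternatives, run in R 4.3.3. The scripts were tested on simulated data. Intervals of shares are Wilson 95% intervals. Named are the 9 members, listed complement genes called or at a cluster mean of 10 CPM, and the 3 genes most like each member. One listed complement gene is not reported here. The members, lists and tests were chosen with earlier results of these data known.

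Both sides of a comparison share the strain, and so its mice and plates. The deviations of both sides from their group means correlated by 0.03 to 0.24 over genes in each strain and comparison. The strain was therefore also fitted as a replicate block. With it 5 of the 9 genes were called between fibroblasts and mural cells (4.81% of all genes), Serping1 being added with an adjusted p of 0.0398, and 2 of 9 between cluster 1 and clusters 2 to 5 (0.742%), C3 being lost with an adjusted p of 0.0672.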

Additional observations from a re-analysis of the deposited data

Results flagged for a closer look

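In 6 of the 36 groups of 4 strains, 1 strain stood apart from the other 3 by Dixon's test. By chance the test marks about 1 group of 20 if values are independent and normal. Here 1 cell can hold most counts of a sum, so the number of marked groups cannot be set against that rate. The Cspg4dsRED strain gave 5 of the 6, each from 8 cells of cluster 2 or 3 cells of cluster 1.

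In cluster 2, C1ra was at 376.6 CPM in Cspg4dsRED and at 251.9 to 269.99 CPM in the other strains. All 8 cells had 10 counts or more, and the level was 336.3 CPM without the cell with the most counts. C2 was at 55.1 CPM (others 0.276 to 5.35 CPM), from 2 of the 8 cells, and 1 cell held 63.8% of the counts. Cfb was at 324.5 CPM (others 0.303 to 11.5 CPM), from 3 cells, 1 of which held 57.8%. C4b was at 114.6 CPM (others 39.5 to 51.5 CPM), from 5 cells, and 77.4 CPM without the top cell.

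In cluster 1, C4b was at 430.7 CPM in Cspg4dsRED (others 16.2 to 54.1 CPM), and 1 of the 3 cells held all of its 349 counts. C2 was at 6.79 CPM in Acta2GFP (others 0 to 0.248 CPM), where 1 of the 26 cells held 41.7% of 72 counts.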

How the results depend on the processing

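Between fibroblasts and mural cells, 3 of the 9 genes were called after leaving out any strain (2.66% to 3.91% of all genes), and C3, C7 and Cd55 were called throughout. Between cluster 1 and clusters 2 to 5, 1 to 4 genes were called after leaving out a strain (1 without C57BL6, 1 without Acta2GFP, beside 0.201% to 0.748% of all genes), 5 with DESeq2 (5.22%) and 2 with the strain as a replicate block (0.742%), and only Cd55 was called in each of these fits. Requiring 10 cells per sum leaves out the same sums as leaving out Cspg4dsRED, and then C1ra was called too (-2.05). The C4b estimate in cluster 1 changed sign with limma voom (-0.94), with the replicate block (-0.32), with 10 cells per sum (-1.12) and without Cspg4dsRED (-1.12), and ran from -1.12 to 1.34 without each strain in turn. DESeq2 called 1 of the 9 genes in cluster 2, 2 in cluster 4, 1 in cluster 5 and 1 in cluster 6. Limma voom called 1 in cluster 4 and 1 in cluster 6. EdgeR without the filter on low counts called 1 in cluster 5 (C3, adjusted p = 0.000862), beside 0.119% of all genes. In clusters 2, 4 and 6 no gene of the 9 was called after leaving out a strain (0 to 0). The replicate block changed no other call of the 9 genes. Of the other complement genes it added Vtn in cluster 8 (adjusted p = 0.0166, beside 0.691% of all genes called). In cluster 6 it added Vtn (2.07e-19) and Colec11 (0.000136), beside 0.883% of all genes. The cause of these changes was not tested.

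Over the alternatives the number of all genes called ran from 367 to 1926 for fibroblasts against mural cells, 26 to 689 for cluster 1, 0 to 387 for cluster 3, 0 to 380 for cluster 8 and 0 to 341 for cluster 6, with DESeq2 highest in each. Of the single gene differences, 319 kept direction and side of the threshold, 22 gained a call, 14 lost it and 4 changed sign. The mean over cells of log2(CPM + 1) was added after the data were seen. A minimum of 10 cells leaves the sums as they are for fibroblasts against mural cells and for clusters 4 and 5, and too few strains for cluster 6, and no strain could be left out for cluster 5. The sums of C2 and Cfb rest on few cells, and a read is not a molecule here.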
